A study of Mus musculus with 6 samples.

Results

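The 37 RNAs described here are those encoded by the mouse mitochondrial genome. They were taken as every row of the deposited gene table whose gene name begins with "mt-", 37 of 55401 genes, and comprise 13 mRNAs, 2 ribosomal RNAs and 22 transfer RNAs. They were measured by RNA-seq in myotubes of C2C12, a mouse myoblast line that fuses into multinucleated muscle cells. Of 6 cultures, 3 received siRNA against SENP7, an enzyme that takes the small modifier SUMO off proteins, and 3 received the control siRNA GL2, which is directed against firefly luciferase. Both groups were kept in DMEM with 2% horse serum and antibiotics and were exposed to 100 pmol of siRNA for 3 days, so the groups differed in the siRNA alone as far as the labels state. Poly(A) RNA was selected before directional libraries were made, and all libraries were sequenced in a common run. The submitters call the 3 libraries of a group biological replicates, and every p-value measures the spread among them.

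The mitochondrial genome is transcribed on both strands into long precursors by the polymerase POLRMT with the factors TFAM and TFB2M. Transfer RNAs lie between most of the mRNA and rRNA genes, and their excision releases the RNAs on either side. The mRNAs then receive short poly(A) tails from MTPAP and are stabilised by the LRPPRC and SLIRP complex. They encode subunits of respiratory complexes I, III, IV and V, while complex II is encoded by nuclear genes only, and muscle fibres use these complexes for sustained contraction.

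Libraries held 25434880 to 30865945 reads assigned to genes after SENP7 siRNA and 25223218 to 27763538 after control siRNA. The siRNA target Senp7 averaged 300.3 ± 40.2 normalized counts after SENP7 siRNA and 607.2 ± 46.9 after control siRNA (SD, n = 3 each). Its log2 fold change was -1.02 ± 0.11 (SE, limma adjusted p = 0.000428). Control replicate 3 stood apart, with a first principal component of -19.13 against -36.74 and -33.35 in control replicates 1 and 2, whereas the SENP7 libraries lay between 27.68 and 32.53. Between SENP7 replicates 1 and 2 the chi-square was 1.7 per gene, where sampling noise alone gives about 1. It was 13.4 and 12.3 for SENP7 replicate 3 against replicates 1 and 2, and 7.26, 36.9 and 21.9 for the control pairs. SENP7 replicates 1 and 2 were kept as separate cultures as the submitters state. Their independence was not tested, and every SENP7 SD and p-value rests on it. The 7 myotube markers summed to 560000 to 640600 normalized counts after SENP7 siRNA and 516900 to 533400 after control siRNA. Of these 7, Ckm (log2 fold change 1.00, limma adjusted p = 0.00149) and Mymk (0.45, 0.00428) were higher after SENP7 siRNA and none was called lower. Myog (0.28, 0.0904), Myh3 (0.35, 0.0635), Acta1 (0.16, 0.284), Tnnt3 (0.30, 0.065) and Des (-0.20, 0.242) were not called. Of all genes tested, 10.2% were called higher and 10.7% lower. Of the myoblast markers, Pax7 was higher after SENP7 siRNA (log2 fold change 0.48, limma adjusted p = 0.0159) and Myf5 was not called. The part of these marker differences in the mitochondrial RNAs was not tested. The dividing-cell markers Mki67 and Top2a summed to 3642 to 4806 after SENP7 siRNA and 3844 to 5638 after control siRNA, and neither was called. The osteoblast markers Sp7 and Bglap summed to 5.349 to 12.31 and 11.12 to 25.2, and the endothelial markers Pecam1 and Cdh5 to 6.631 to 8.559 and 5.04 to 5.836. The adipocyte and macrophage markers summed to at most 2.14 in any library, with Adgre1 at 0 in all 6.

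Sequences are shown for the places on which reading these counts depends, from GENCODE M21 transcripts (GRCm38). The first are the last 30 bases of mt-Nd5 (chrM:13536-13565, plus strand) and mt-Nd6 (chrM:13552-13581, minus strand), whose 3' ends overlap on opposite strands. Capitals mark the 14 shared bases.
mt-Nd5: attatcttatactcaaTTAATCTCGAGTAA
mt-Nd6: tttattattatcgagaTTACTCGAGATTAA

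The next set shows how the annotated genes of 4 of the abundant mRNAs end. The capitals mark the stop codon as the genome encodes it. The genes are mt-Nd1 (chrM:3678-3707), mt-Nd2 (chrM:4922-4951), mt-Nd4 (chrM:11515-11544) and mt-Cytb (chrM:15259-15288), all on the plus strand.
mt-Nd1: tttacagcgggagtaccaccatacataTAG
mt-Nd2: ctacccctagccccccaactaattaccTAG
mt-Nd4: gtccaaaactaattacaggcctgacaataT
mt-Cytb: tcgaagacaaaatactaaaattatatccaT

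The encoded stop of mt-Nd4 and mt-Cytb is a single T, and in mammals the poly(A) tail supplies the remaining bases of the codon. The same held for mt-Co3, and the other 10 mRNA genes had a complete stop codon within their annotated length. In mt-Nd1 and mt-Nd2 the last 2 bases of that codon are also the first bases of mt-Ti and mt-Tw on the same strand. Where these 2 mRNAs end once the tRNA is excised was not analysed.

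Another set shows how little some nuclear copies differ from an mRNA gene. It sets 75 bases of mt-Co1 (chrM:6390-6464, plus strand) beside 2 nuclear copies, Gm29216 (chr1:24616114-24616188, minus strand) and Gm13340 (chr2:22588511-22588585, minus strand). Capitals in mt-Co1 mark positions where either copy differs, and capitals in the copies mark the differing bases, 1 in Gm29216 and 2 in Gm13340. The base marked in Gm29216 is its only mismatch over 483 matched bases. Reads from the rest of that match, which is not shown, cannot be told apart from reads of Gm29216.
mt-Co1: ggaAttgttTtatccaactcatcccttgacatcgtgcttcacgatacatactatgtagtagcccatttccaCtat
Gm29216: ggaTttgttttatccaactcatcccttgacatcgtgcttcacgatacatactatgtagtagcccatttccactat
Gm13340: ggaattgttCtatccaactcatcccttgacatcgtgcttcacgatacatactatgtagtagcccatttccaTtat

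The last set holds the 4 tRNA genes that passed the test, all on the plus strand. They are mt-Tl1 (chrM:2676-2750), mt-Ti (chrM:3706-3774), mt-Tm (chrM:3845-3913) and mt-Tw (chrM:4950-5016), for leucine, isoleucine, methionine and tryptophan. Capitals mark bases shared with a neighbouring gene, which are mt-Nd1 and mt-Tq for mt-Ti and mt-Nd2 for mt-Tw.
mt-Tl1: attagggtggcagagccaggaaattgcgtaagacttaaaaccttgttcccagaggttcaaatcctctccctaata
mt-Ti: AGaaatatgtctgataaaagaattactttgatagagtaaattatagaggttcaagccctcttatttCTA
mt-Tm: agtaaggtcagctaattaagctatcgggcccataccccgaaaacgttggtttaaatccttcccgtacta
mt-Tw: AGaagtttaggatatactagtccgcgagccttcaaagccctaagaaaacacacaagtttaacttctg

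Mitochondrial RNAs made up a larger share of all reads after SENP7 siRNA. The 37 genes together took 3.54%, 3.58% and 3.51% of reads in SENP7 replicates 1, 2 and 3, against 2.72%, 2.68% and 2.61% in control replicates 1, 2 and 3. Every SENP7 library lay above every control library. The means were 3.54 ± 0.035% and 2.67 ± 0.06% (SD, n = 3 each), a ratio of 1.33. An exact two-sided permutation test gave p = 0.1, the smallest value that 3 libraries against 3 can give. In bulk RNA, more mitochondrial RNA per cell and more cells rich in it cannot be told apart.

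The share of each RNA class was higher by a similar ratio for mRNAs and rRNAs. The 13 mRNAs took 3.29 ± 0.033% of reads after SENP7 siRNA and 2.49 ± 0.067% after control siRNA, a ratio of 1.32. The 2 rRNAs took 0.252 ± 0.0034% and 0.181 ± 0.012%, a ratio of 1.39. The 22 tRNA genes took only 0.00286 ± 0.00057% and 0.00176 ± 0.00019%, a ratio of 1.62. The groups did not overlap in any class, and each exact permutation p was 0.1. The share of 3856 nuclear rRNA, snRNA, snoRNA, scaRNA and misc_RNA genes, most of which make RNAs without poly(A) tails, was 0.00526 ± 7.1e-05% after SENP7 siRNA and 0.00549 ± 6e-05% after control siRNA, a ratio of 0.957. For 70 replication-dependent histone genes, whose mRNAs normally lack a poly(A) tail, the share was 0.0189 ± 0.00041% and 0.0264 ± 0.001%, a ratio of 0.715. The part of poly(A) selection in the shares of the mitochondrial RNAs was not tested.

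**Figure D1:**
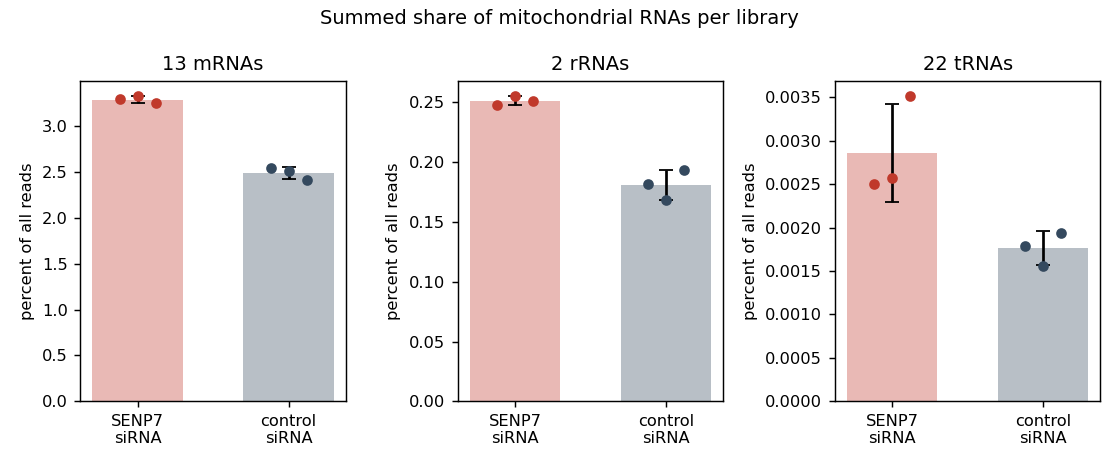
Summed share of all reads, in percent, taken by the 13 mRNAs, 2 rRNAs and 22 tRNAs of the mitochondrial genome, with SENP7 siRNA left of control siRNA. Bars are means, error bars are SD over 3 libraries and points are libraries; in each panel all SENP7 points lie above all control points, with ratios of the means of 1.32, 1.39 and 1.62.

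Not all 37 genes could be tested. The filter, 10 or more normalized counts in 3 or more libraries, was met by 19 genes, namely 10 mRNAs, both rRNAs and 7 tRNAs. Of these 19, 11 were higher after SENP7 siRNA and 0 were lower at an adjusted p under 0.05 (limma on log2(normalized count + 1), Benjamini-Hochberg over 14668 genes). Over all genes tested, 10.2% were higher and 10.7% lower, 20.9% in either direction. At an unadjusted p under 0.05, 12 members were higher and 0 lower, beside 2459 higher and 2594 lower of all 14668 genes tested. On the recovered reads edgeR and DESeq2 each called 11 members higher and 0 lower. Among the same 14668 genes edgeR called 1519 higher and 1511 lower, and DESeq2 1387 and 1546. The median log2 fold change of the 19 members was 0.43, against -0.003 over all genes tested, and 16 of 19 were positive. In 14 of the 19 all SENP7 libraries lay above all control libraries, as in 19.3% of all genes tested, and in 0 below them, as in 20.4%. The number called depended on single libraries, being 5 when control replicate 2 was left out and 6 when SENP7 replicate 1 or SENP7 replicate 2 was. mt-Nd2, mt-Nd4, mt-Nd5, mt-Rnr2 and mt-Tl1 passed the test whichever library was left out.

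**Figure D2:**
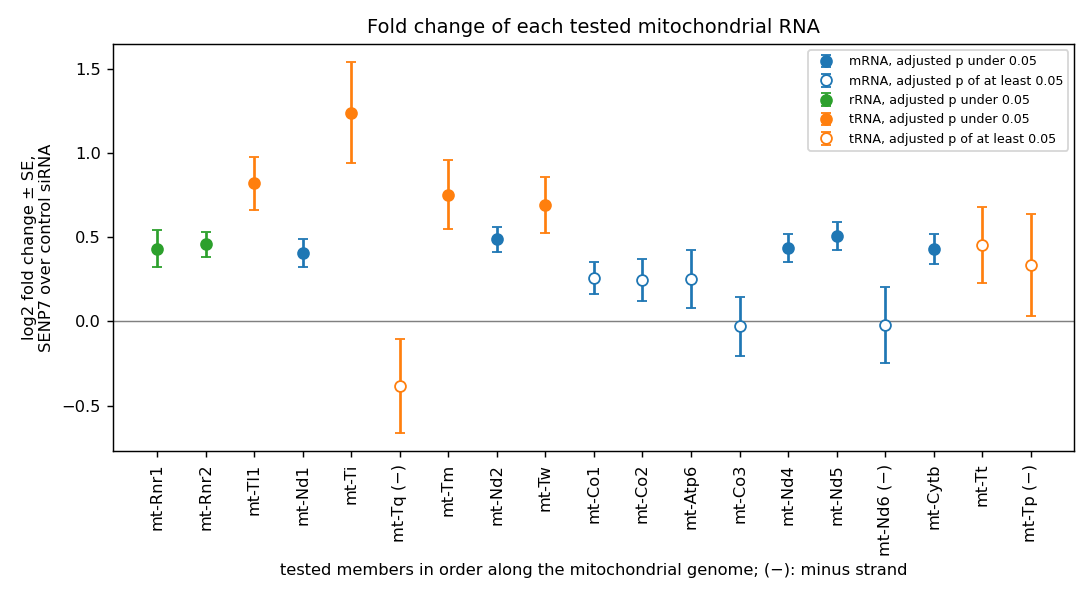
Log2 fold change of SENP7 over control siRNA for the 19 tested mitochondrial RNAs, in their order along the genome, with error bars of 1 SE from limma. Filled symbols passed an adjusted p of 0.05 and open ones did not; the 11 filled symbols all lie above 0, and the 3 genes of the minus strand are all open.

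Among the complex I mRNAs, which encode membrane subunits of the NADH dehydrogenase, mt-Nd5 had the largest fold change of those called, ahead of mt-Nd2 by less than its standard error. mt-Nd5 (chromosome M, 11742 to 13565) had 144900, 144400 and 141300 normalized counts in SENP7 replicates 1, 2 and 3, against 99630, 105500 and 98100 in control replicates 1, 2 and 3. Each group was tight and the gap between groups was far wider than the spread within them. The means of 143500 ± 1930 and 101100 ± 3910 gave a log2 fold change of 0.51 ± 0.08 (SE, limma adjusted p = 0.0034). mt-Nd2 (3914 to 4951) had 80340, 78630 and 81580 in the SENP7 libraries, against 57870, 56780 and 56810 in the control libraries. The control libraries were within a narrow band and the SENP7 libraries all stood above it, with a log2 fold change of 0.49 ± 0.08 (limma adjusted p = 0.00248).

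mt-Nd4 (10167 to 11544) and mt-Nd1 (2751 to 3707) followed with similar steps. mt-Nd4 had 68030, 67750 and 63790 normalized counts in the SENP7 libraries, against 50970, 50510 and 46030 in the control libraries. Replicate 3 was the lowest of both groups, and the groups did not overlap (log2 fold change 0.44 ± 0.08, limma adjusted p = 0.00613). mt-Nd1 had 108200, 105500 and 104300 in the SENP7 libraries, against 84750, 78210 and 77230 in the control libraries. Replicate 1 was the highest of both groups, again without overlap (log2 fold change 0.41 ± 0.08, limma adjusted p = 0.00916). The call of mt-Nd1 was lost without SENP7 replicate 1 (limma adjusted p = 0.0594), SENP7 replicate 2 (0.0567) or control replicate 2 (0.0561), within a range of 3.28e-08 to 0.0594 over all settings.

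mt-Nd6, the complex I mRNA of the minus strand (13552 to 14070), did not pass the test. It had 1762, 1508 and 977.6 normalized counts in the SENP7 libraries, against 1816, 1350 and 1108 in the control libraries. In both groups replicate 1 was highest and replicate 3 lowest, and the ranges of the groups overlapped almost wholly. Its log2 fold change was -0.02 ± 0.23 (limma adjusted p = 0.961), and the sign turned in 3 of 17 alternative settings, to 0.02 with scaling to nuclear reads, 0.17 without control replicate 1 and 0.22 without SENP7 replicate 3. In human cells mt-Nd6 mRNA is known to lack a regular poly(A) tail, and the part of poly(A) selection in these counts was not tested. The log2 ratio of mt-Nd6 to mt-Nd5, its neighbour on the other strand, was -6.71 ± 0.42 after SENP7 siRNA and -6.18 ± 0.36 after control siRNA. That difference of -0.53 had an exact permutation p of 0.2 (adjusted p = 0.333 over 5 ratios).

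mt-Cytb (14145 to 15288), which encodes cytochrome b, the sole mitochondrial subunit of complex III, was higher after SENP7 siRNA. It had 175900, 178000 and 170600 normalized counts in the SENP7 libraries, against 137100, 132200 and 120200 in the control libraries. Control replicate 3 was the lowest, and the highest control library stayed well below the lowest SENP7 library. The means were 174800 ± 3820 and 129800 ± 8680, with a log2 fold change of 0.43 ± 0.09 (SE, limma adjusted p = 0.011). The call was lost without SENP7 replicate 1 (limma adjusted p = 0.0619), SENP7 replicate 2 (0.0699) or control replicate 2 (0.0525), with 1.14e-07 to 0.0699 over all settings.

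mt-Co1 (5328 to 6872), the catalytic subunit of complex IV, had the highest count of any member and a smaller step. It had 321400, 326700 and 314600 normalized counts in the SENP7 libraries, against 275900, 279200 and 251300 in the control libraries. The groups did not overlap, but control replicate 3 lay well below the other control libraries. The means were 320900 ± 6060 and 268800 ± 15300, and the log2 fold change of 0.26 ± 0.10 missed the threshold (limma adjusted p = 0.0926). It passed in 5 of 17 alternative settings, 1 of which left out control replicate 3 (limma adjusted p = 0.0354), with 0.00204 to 0.284 over all settings. In the authors' deposited table its adjusted p was 0.00353. That table held an adjusted p for 30 members, of which 11 were under 0.05, beside 9.26% of its 27493 genes with such a value, and it included mt-Co1 but not mt-Tm.

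**Figure D3:**
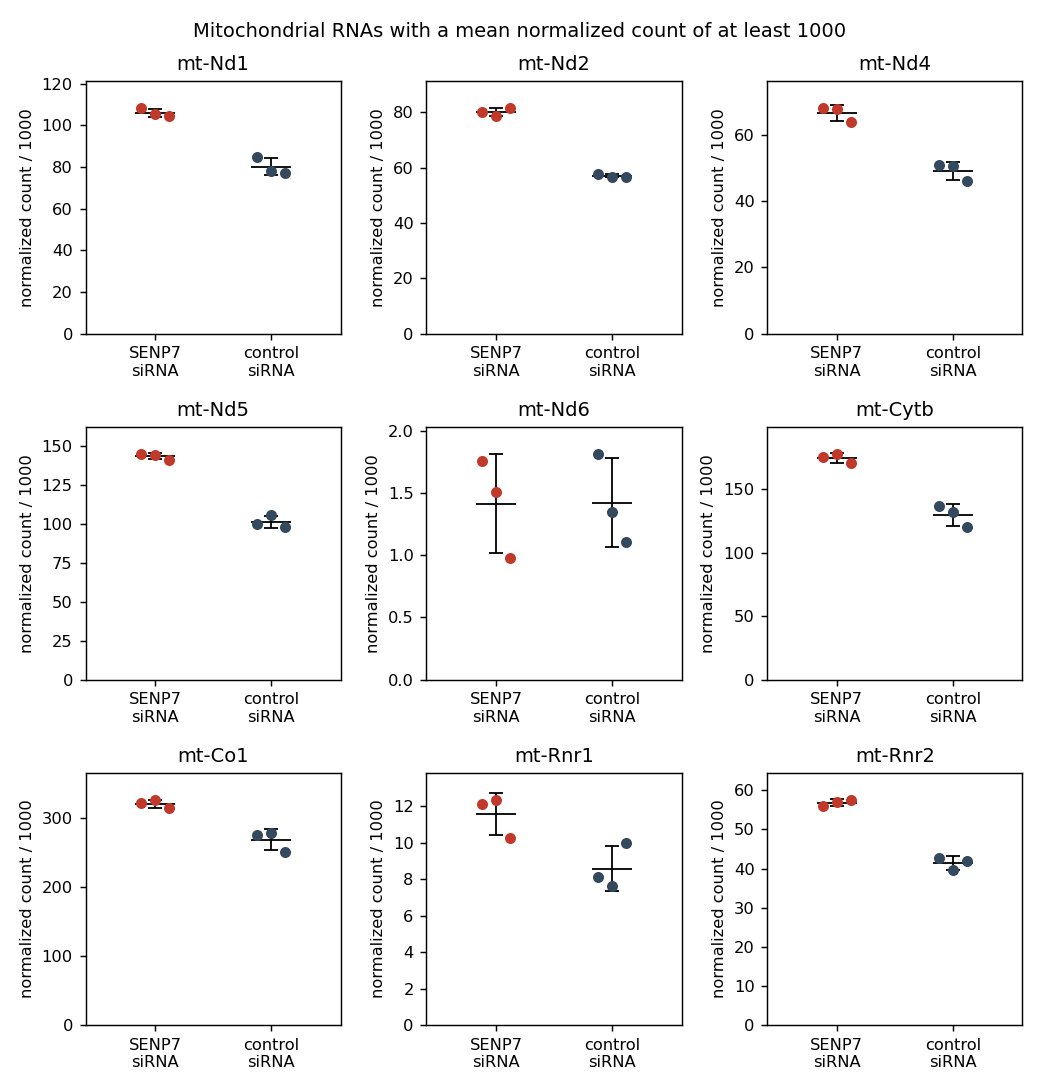
Normalized counts, divided by 1000, of the 9 mitochondrial RNAs with a mean of at least 1000, with SENP7 siRNA left of control siRNA and axes that start at 0. Points are the 3 libraries of a group, in the order of their replicate numbers, and bars are the mean and SD; mt-Nd6 alone has overlapping groups.

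Both ribosomal RNAs were higher after SENP7 siRNA. mt-Rnr2, the 16S RNA of the large ribosomal subunit (1094 to 2675), had 55910, 57090 and 57600 normalized counts in the SENP7 libraries, against 42730, 39550 and 42080 in the control libraries. The lowest SENP7 library was far above the highest control library. Its log2 fold change was 0.46 ± 0.07 (SE, limma adjusted p = 0.00334). mt-Rnr1, the 12S RNA of the small subunit (70 to 1024), had 12110, 12370 and 10260 in the SENP7 libraries, against 8156, 7664 and 9980 in the control libraries. SENP7 replicate 3 and control replicate 3 nearly met, and the log2 fold change was 0.43 ± 0.11 (limma adjusted p = 0.0247). This call was lost without control replicate 1 (limma adjusted p = 0.0738), control replicate 2 (0.114), SENP7 replicate 1 (0.0967) or SENP7 replicate 2 (0.103), with 0.000577 to 0.114 over all settings. The log2 ratio of mt-Rnr1 to mt-Rnr2 was -2.30 ± 0.16 after SENP7 siRNA and -2.28 ± 0.17 after control siRNA (exact permutation p = 1). These counts describe rRNA that was carried through poly(A) selection and not the whole rRNA pool.

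Within the mitochondrial reads, the share of mt-Co1 was lower in every SENP7 library than in any control library, and no difference in share passed a test. mt-Co1 made up 33.2%, 33.6% and 33.3% of all mitochondrial reads in the SENP7 libraries, against 36.3%, 37.2% and 35.7% in the control libraries. mt-Nd5 made up 14.9 ± 0.059% in the SENP7 libraries and 13.7 ± 0.51% in the control libraries (SD, n = 3 each). The groups did not overlap for mt-Co1, which was lower, or for mt-Nd2, mt-Nd4 and mt-Nd5, which were higher, and they overlapped for the other 5 of the 9 RNAs compared, the complex I mRNAs mt-Nd1 and mt-Nd6 among them. Each of the 4 had an exact permutation p of 0.1, the smallest that 3 libraries against 3 can give, and an adjusted p of 0.225 over the 9, so this design cannot reach 0.05. The log2 ratio of mt-Co1 to mt-Nd5 was 1.16 ± 0.02 after SENP7 siRNA and 1.41 ± 0.06 after control siRNA, a difference of -0.25 (exact permutation p = 0.1, adjusted p = 0.25 over 5 ratios). Because shares of a whole depend on each other, a lower share of mt-Co1 does not mean a lower count.

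The remaining mRNAs had few reads. mt-Co2 averaged 116.8 ± 9.15 normalized counts after SENP7 siRNA and 98.1 ± 4.99 after control siRNA, mt-Atp6 38.17 ± 1.09 and 31.85 ± 1.23, and mt-Co3 41.24 ± 4.03 and 42.03 ± 2.79. mt-Co2 and mt-Co3 encode the other core subunits of complex IV and mt-Atp6 a subunit of the ATP synthase, complex V. Their log2 fold changes of 0.25 ± 0.13, 0.25 ± 0.17 and -0.03 ± 0.17 did not pass (limma adjusted p = 0.195, 0.337 and 0.927), and that of mt-Co3 changed sign in 3 alternative settings. mt-Atp8, mt-Nd4l and mt-Nd3 were not tested, with 27, 11 and 5 reads over the SENP7 libraries and 16, 9 and 6 over the control libraries. The stretch from mt-Co2 to mt-Nd4l thus stood far below its neighbours on either side.

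Per kilobase of gene, which allows for gene length but not for nuclear copies, the gap in counts within the genome was wide. mt-Co1 had the highest mean of all genes with a read, 207700 ± 3920 normalized counts per kilobase after SENP7 siRNA and 174000 ± 9880 after control siRNA. mt-Cytb was next in both groups, at 152800 and 113500 per kilobase. mt-Nd1 reached 110800 and 83660, mt-Nd5 78690 and 55420, mt-Nd2 77250 and 55060, and mt-Nd4 48280 and 35680. mt-Nd5 and mt-Nd2, neighbours in this order, differed by less than their SD after control siRNA and by slightly more than it after SENP7 siRNA. The place of mt-Nd4 depends on the length used. Its count divided by the 502 bases without a near-identical nuclear copy, described below, gave 132500 and 97950 per kilobase, above mt-Nd1. mt-Rnr2 stood at 35940 after SENP7 siRNA and 26200 after control siRNA, mt-Rnr1 at 12120 and 9005 and mt-Nd6 at 2728 and 2745. By contrast mt-Co2 stood at 170.8 and 143.4 per kilobase, and mt-Atp6, mt-Co3, mt-Atp8, mt-Nd4l and mt-Nd3 were all lower.

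Of the 6 mRNAs with low counts, all but mt-Atp8 had near-identical copies of almost their whole length in the nuclear genome. A search of all annotated transcripts for matches of at least 90% identity over at least 100 bases found 17 nuclear copies of 11 members. Of these copies, 7 lay side by side on chromosome 1 (24611535 to 24616197, minus strand) and matched at 99% or more. They cover mt-Co2 (Gm28661, 681 bases at 100%), mt-Atp6 (Gm10925, 678 bases at 100%), mt-Co3 (Gm28437, 783 bases at 100%), mt-Nd3 (Gm28438, 345 bases at 99.7%) and mt-Nd4l (Gm10222, 294 bases at 100%). They also cover bases 1 to 876 of mt-Nd4 (Gm28439, 100%) and bases 1063 to 1545 of mt-Co1 (Gm29216, 99.8%). The 10 copies elsewhere matched at 90.7% to 97.6%. At least 99% of the length of mt-Co2, mt-Atp6, mt-Co3, mt-Nd3 and mt-Nd4l was matched, 63.6% of mt-Nd4 and 31.3% of mt-Co1. For the other mRNAs and both rRNAs this was 0%, counting matches of at least 100 bases. The last 43 bases of mt-Atp8 are shared with mt-Atp6 and lie within the match of Gm10925. Reads of the 5 mRNAs matched almost throughout cannot be told apart from reads of the copies, and how reads with several matches were counted is not given in the sources used here. Their counts are therefore uncertain and are no measure of the level of these transcripts.

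**Figure D4:**
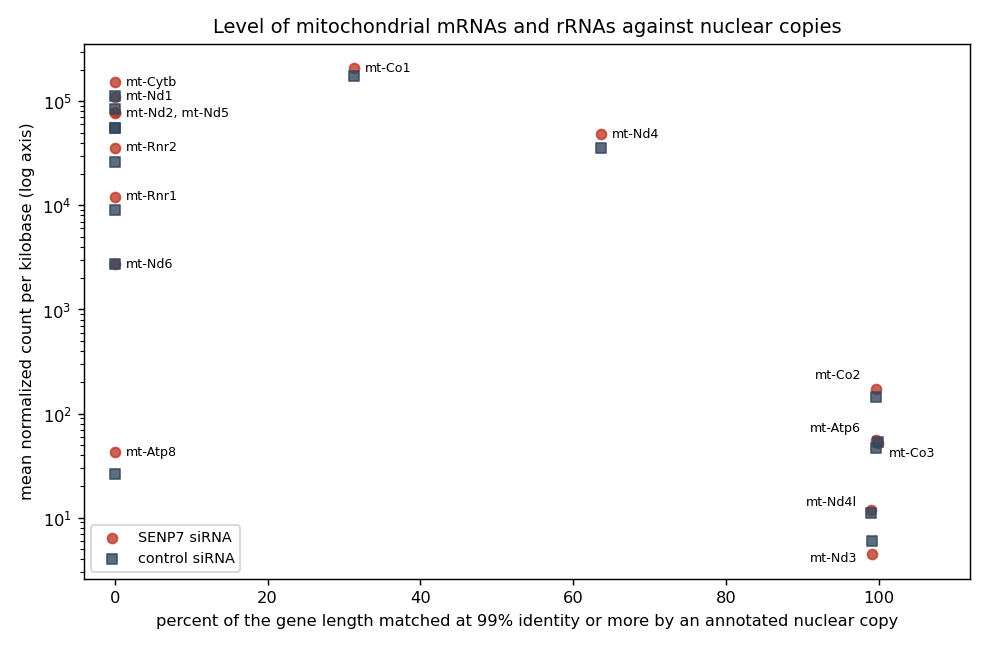
Mean normalized count per kilobase (log axis) of the 13 mRNAs and 2 rRNAs against the percent of their length matched at 99% identity or more by an annotated nuclear copy, for SENP7 siRNA (circles) and control siRNA (squares). The 5 genes matched almost throughout lie at 170.8 per kilobase or less, as does mt-Atp8, for which no annotated copy of at least 100 bases was found. All others lie at 2728 or more.

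The copies themselves were counted at low levels. Gm28661, the copy of mt-Co2, averaged 128 ± 13 normalized counts after SENP7 siRNA and 105 ± 15.7 after control siRNA. Gm10925, the copy of mt-Atp6, averaged 104 ± 9.65 and 76.1 ± 13.4, with a log2 fold change of 0.45 (limma adjusted p = 0.0817). It passed without control replicate 1 (limma adjusted p = 0.042). Of 9 copies tested, 0 were called by limma, beside 20.9% of all genes tested. An unadjusted p under 0.05 was found for 2 copies, beside 2459 genes higher and 2594 lower of all 14668 tested. The counts of the near-identical copies are uncertain for the same reason as those of the members they match. Reads from the matched bases of mt-Nd4 and mt-Co1 cannot be placed with certainty either. When their counts were divided by the unmatched length alone, 502 bases of mt-Nd4 gave 132500 ± 4720 per kilobase after SENP7 siRNA and 97950 ± 5430 after control siRNA, and 1062 bases of mt-Co1 gave 302200 ± 5700 and 253100 ± 14400. Dividing by another length leaves the fold change between groups as it was.

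mt-Atp8 (7766 to 7969) had no annotated copy of at least 100 bases, yet it lies between mt-Co2 and mt-Atp6. It shares 43 bases with mt-Atp6, which the copy Gm10925 also holds. Of the 7 tRNA genes without a read in any library, 5 lie in the same interval between the 3' part of mt-Co1 and mt-Nd4l, namely mt-Ts1, mt-Td, mt-Tk, mt-Tg and mt-Tr. The other two were mt-Tf and mt-Ts2. A count of 0 among 165448732 reads allows up to 3 reads, or 1.81e-06% of all reads. Copies that are not annotated as transcripts were not analysed here.

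Reads in tRNA genes were sparse, and 4 of 7 tested tRNAs were higher after SENP7 siRNA. The genes are 59 to 75 bases long, no longer than a sequencing read, and mature tRNAs have no poly(A) tail. Reads of a tRNA and of an uncut precursor that spans it cannot be told apart. mt-Tl1, whose sequence is shown above and which lies between mt-Rnr2 and mt-Nd1, had 209.39, 196.84 and 266.19 normalized counts in the SENP7 libraries, against 105.83, 131.28 and 142.02 in the control libraries. The groups were well separated, with a log2 fold change of 0.82 ± 0.16 (SE, limma adjusted p = 0.00691). mt-Tw, which follows mt-Nd2, had 261.74, 269.59 and 391.24 in the SENP7 libraries, against 209.65, 163.55 and 189.68 in the control libraries. SENP7 replicate 3 was far above the rest, and the log2 fold change was 0.69 ± 0.17 (limma adjusted p = 0.0186). Without control replicate 2 its adjusted p was 0.0889, within a range of 0.00168 to 0.0889 over all settings.

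mt-Ti and mt-Tm, on either side of mt-Tq, had fewer reads. mt-Ti had 45.25, 41.72 and 42.63 normalized counts in the SENP7 libraries, against 14.11, 13.35 and 29.18 in the control libraries. Control replicate 3 lay at about the midpoint between the other control libraries and the SENP7 libraries, and the log2 fold change was 1.24 ± 0.30 (limma adjusted p = 0.0187). mt-Tm had 34.6, 41.72 and 44.52 in the SENP7 libraries, against 25.2, 20.03 and 25.29 in the control libraries, with a log2 fold change of 0.75 ± 0.21 (limma adjusted p = 0.0313). Without control replicate 3 both calls held, while leaving out any other library ended both, with limma adjusted p of 0.0568 to 0.0796 for mt-Ti and 0.0529 to 0.113 for mt-Tm. With DESeq2 on the recovered reads mt-Tm had an adjusted p of 0.103. Over all settings the adjusted p ranged from 0.000397 to 0.0796 for mt-Ti and from 0.0222 to 0.113 for mt-Tm.

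The tRNA genes mt-Tt, mt-Tp and mt-Tq did not pass. mt-Tt, downstream of mt-Cytb, had 75.42, 93.07 and 140.2 normalized counts in the SENP7 libraries, against 68.54, 65.64 and 84.63 in the control libraries, and the groups overlapped (log2 fold change 0.45 ± 0.23, limma adjusted p = 0.193). mt-Tp, on the minus strand, had a log2 fold change of 0.34 ± 0.30 (limma adjusted p = 0.475). mt-Tq, also on the minus strand, averaged 16.08 ± 4.32 after SENP7 siRNA and 21.06 ± 3.93 after control siRNA, with a log2 fold change of -0.38 ± 0.28 (limma adjusted p = 0.366). All of these values depended on single libraries. The log2 fold change was 0.21 for mt-Tt without SENP7 replicate 3. It was 0.67, 0.18 and 0.17 for mt-Tp without control replicates 1, 2 and 3, and -0.22 and -0.57 for mt-Tq without SENP7 replicates 1 and 3. The other 8 tRNA genes with reads had at most 12 reads over the SENP7 libraries and 14 over the control libraries and were not tested. Of mt-Ta 7 of its 9 reads came from SENP7 replicate 3.

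By strand, 16 of 28 members on the plus strand were tested and 11 were called. On the minus strand 3 of 9 were tested and 0 were called, beside 20.9% called in either direction over all genes tested. The minus strand members are mt-Nd6 and 8 tRNAs, and the tested ones had far lower counts than the called mRNAs and rRNAs. mt-Nd6 averaged 1416 normalized counts after SENP7 siRNA and 1425 after control siRNA, and mt-Tw, the highest of the called tRNAs, 307.5 and 187.6. The SE of the log2 fold change was 0.225 for mt-Nd6 and 0.166 for mt-Tw. A difference between strands was not tested.

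Of the nuclear genes that make and handle mitochondrial RNA, few were called. Of 10 genes of mitochondrial transcription, 0 passed in limma, beside 20.9% of all genes tested. At an unadjusted p under 0.05 there were 0, beside 2459 higher and 2594 lower of all 14668 genes tested, and edgeR and DESeq2 called 0 each. Without control replicate 3, 1 gene of this list was called lower. Polrmt averaged 1742 ± 14 normalized counts after SENP7 siRNA and 1604 ± 72.8 after control siRNA (log2 fold change 0.12 ± 0.06, limma adjusted p = 0.172). Tfam averaged 1133 ± 97.1 and 1148 ± 84.3, and its log2 fold change of -0.02 ± 0.08 (limma adjusted p = 0.896) changed sign in 4 alternative settings. Tfb2m had -0.06 ± 0.07 (limma adjusted p = 0.616). The median of this list was -0.01, against -0.003 over all genes tested.

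Of 21 genes of RNA processing, polyadenylation and decay, 2 were higher and 2 lower, near the share over all genes. Lrpprc, which protects mitochondrial mRNAs, had 3210, 3084 and 3240 normalized counts in the SENP7 libraries, against 2344, 2315 and 2572 in the control libraries. It was higher in each SENP7 library than in any control library, with a log2 fold change of 0.40 ± 0.06 (limma adjusted p = 0.00246). Hsd17b10, a subunit of mitochondrial RNase P, which cuts the 5' ends of tRNAs, was higher by 0.30 ± 0.07 on the log2 scale (limma adjusted p = 0.0154), a call lost without SENP7 replicate 1 (0.076) or 2 (0.0791), with 0.00257 to 0.0791 over all settings. Elac2, which cuts their 3' ends, averaged 1298 ± 32.5 after SENP7 siRNA and 1603 ± 27.8 after control siRNA, with a log2 fold change of -0.30 ± 0.05 (limma adjusted p = 0.00525). Trnt1, which adds the CCA end to tRNAs, had -0.30 ± 0.06 (limma adjusted p = 0.00783). The calls of Lrpprc, Elac2 and Trnt1 held in all 17 alternative settings. Slirp, the partner of LRPPRC, had a log2 fold change of 0.27 ± 0.09 (limma adjusted p = 0.0703) and passed in 4 settings, 1 of which left out control replicate 1 (0.0354). Mtpap (0.14), Pnpt1 (0.03), Supv3l1 (-0.09) and Grsf1 (-0.03) did not pass, and the signs of Pnpt1 and Grsf1 turned in 1 and 2 settings.

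In the lists of later steps, 1 of 20 genes of rRNA and tRNA modification, 1 of 16 translation factors and 2 of 19 mitochondrial tRNA synthetases were higher and 0 were lower, that is 5%, 6.25% and 10.5% higher, beside 10.2% over all genes tested. The calls in modification and translation factors fell to 0 when any library but control replicate 3 was left out. Without control replicate 3, 2 modification genes were higher and 1 lower, and 3 translation factors were higher and 0 lower. Of the synthetases 1 was called without control replicate 1 or any SENP7 library, and without control replicate 3, 3 were higher and 1 lower. Mars2, which charges the methionine tRNA, had a log2 fold change of 0.47 ± 0.07 (limma adjusted p = 0.00151) and was called in all 17 alternative settings. Of 19 genes of mtDNA replication and maintenance, 3 (15.8%) were higher and 1 (5.26%) was lower, and without SENP7 replicate 1 or 2 a single one of them was called, in each case higher. Of 77 tested mitochondrial ribosomal protein genes, 5 (6.49%) were higher and 0 lower. This count was 0 when SENP7 replicate 1 or SENP7 replicate 2 was left out, 2 when control replicate 2 was and 8 when control replicate 1 was. When control replicate 3 was left out, 4 were higher and 6 lower. The 78 ribosomal protein genes took 0.263 ± 0.0088% of all reads after SENP7 siRNA and 0.251 ± 0.016% after control siRNA, with overlapping groups (exact permutation p = 0.3).

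**Figure D5:**
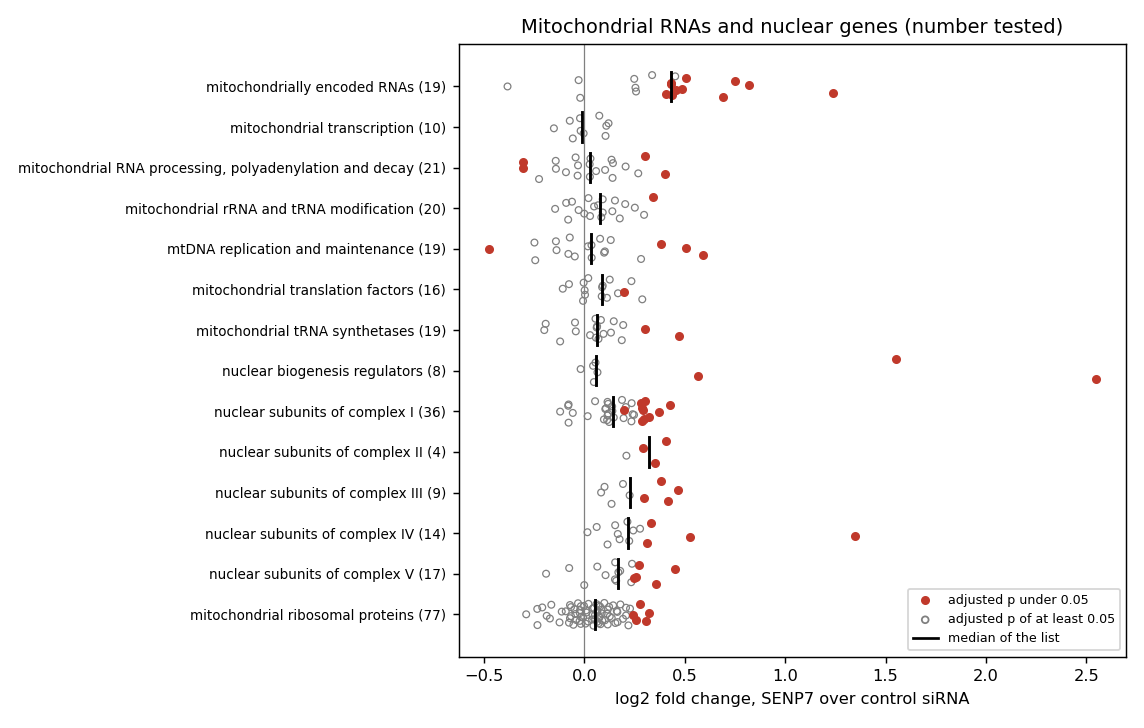
Log2 fold change of SENP7 over control siRNA for the tested mitochondrial RNAs and for 13 lists of nuclear genes of mitochondria. Filled points passed a limma adjusted p of 0.05, open points did not and vertical bars are medians; the mitochondrial RNAs have a median of 0.43, and the lists lie between -0.01 for transcription and 0.32 for complex II.

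With all 6 libraries, the nuclear subunits of the respiratory complexes were higher where they were called. Of 80 tested subunits of the 5 complexes, 26 were higher (32.5%) and 0 lower, against 10.2% and 10.7% over all genes. The count fell to 10 when SENP7 replicate 1 or SENP7 replicate 2 was left out and to 11 when control replicate 2 was. It rose to 38 without control replicate 1. Without control replicate 3, 26 were higher and 2 lower. By complex, 10 of 36 were higher for complex I, 3 of 4 for complex II, 4 of 9 for complex III, 4 of 14 for complex IV and 5 of 17 for complex V, with median log2 fold changes of 0.14, 0.32, 0.23, 0.22 and 0.17. Cox7a1, a muscle subunit of complex IV, averaged 269 ± 25.6 normalized counts after SENP7 siRNA and 105.1 ± 5.37 after control siRNA (log2 fold change 1.35 ± 0.11, limma adjusted p = 0.000141). Cox6a2, another muscle subunit, had 0.52 ± 0.09 (limma adjusted p = 0.00367), Ndufb10 of complex I 0.43 ± 0.06 (0.00182) and Uqcrc2 of complex III 0.38 ± 0.06 (0.00222). Summed over 82 genes, the nuclear subunits took 1.19 ± 0.035% of all reads after SENP7 siRNA and 1.02 ± 0.075% after control siRNA, a ratio of 1.17, beside 1.32 for the mitochondrial mRNAs. All 3 SENP7 libraries lay above all 3 control libraries (exact permutation p = 0.1), and the 2 ratios were not tested against each other.

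Among 8 regulators of mitochondrial gene programmes, 3 were higher and 0 lower, also with any single library left out, beside 10.2% higher and 10.7% lower over all genes tested. The median log2 fold change of the list was 0.06, and the other 5 were not called, among them Tfam, which is also in the list of mitochondrial transcription. Ppargc1a, the coactivator PGC-1alpha, had 223.6, 203.3 and 300.3 normalized counts in the SENP7 libraries, against 55.44, 80.1 and 118.7 in the control libraries. Control replicate 3 was the highest control and still lay below every SENP7 library, with a log2 fold change of 1.55 ± 0.26 (limma adjusted p = 0.00377). Ppargc1b, a related coactivator, had 0.57 ± 0.10 (limma adjusted p = 0.00396). Esrrg, a nuclear receptor that works with these coactivators, averaged 49.85 ± 6.35 after SENP7 siRNA and 9.301 ± 7.35 after control siRNA (log2 fold change 2.55 ± 0.46, limma adjusted p = 0.00549). Whether these genes and the mitochondrial RNAs moved together from culture to culture was not tested.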

How the data were processed

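RNA was measured in 6 libraries of C2C12 myotubes, 3 per group. Per the submitters' processing notes, the authors used the build GRCm38.p6, the aligner STAR 2.6.1d, the counter featureCounts 1.6.4, Trim Galore 0.6.4, bcl2fastq and DESeq2. Not given in the sources used here are the annotation release, the strand setting and the handling of reads with several matches. The deposited table had a normalized signal per gene and library, which from the values was a read count divided by 1 factor per library. It also held, per the file headers, the authors' log2 fold change with its standard error, a Wald score and a p-value with its adjusted value. In every library 100% of values were whole reads within 0.1 read once multiplied by that factor, and these recovered counts give the depths stated.

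limma 3.58.1 (R 4.3.3) was fitted with a mean-variance trend and robust empirical Bayes to log2(normalized count + 1) of 14668 genes with at least 10 in at least 3 libraries, two-sided, adjusted by Benjamini-Hochberg, with a threshold of 0.05. Fold changes on this scale understate those of low genes. Other settings were a block for the replicate number, edgeR 4.0.16 and DESeq2 1.42.0 on recovered reads, other scalings, pseudocounts and filters, a correction for GC content and gene length, a threshold of 0.01 and each library left out. Levels per unmatched kilobase and the share of nuclear RNAs without poly(A) tails were added after the data were seen. Single values per library were compared by exact two-sided permutation tests (scipy 1.17.1). Nuclear copies were found with blastn 2.17.0 among GENCODE M21 transcripts, whose coordinates matched the table for all 37 members. The procedure was tested on simulated data.

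The members and gene lists were chosen with earlier results of these data known. Named were all members, their nuclear copies, Senp7, a set of transcription, stability and decay genes, and up to 4 genes per list with the smallest adjusted p. A few of those genes, and 1 copy, are not reported here.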

Additional observations from a re-analysis of the deposited data

How the results depend on the processing

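The 5 members called under every omission of a library were also called under all 17 alternative settings run at the threshold of 0.05, and 0 members were called lower in any of them. The median log2 fold change over the tested members lay between 0.32 with the correction for GC content and gene length and 0.47 with scaling to nuclear reads. At a threshold of 0.01, 6 members, 1398 genes in all and 19 genes of the partner lists were called, against 11, 3062 and 46 at 0.05. With each library left out, the counts ran from 5 to 12 members, from 1504 to 4657 genes in all and from 18 to 62 partner genes. Whether the replicate numbers pair the samples cannot be settled from so few libraries. Same-numbered libraries correlated at 0.13, 0.062 and 0.251 in their deviations from the group means, and different-numbered ones at -0.22 to 0.141. SENP7 replicates 1 and 3 correlated best with the control of their own number, and SENP7 replicate 2 with control replicate 1 (0.141). The replicate number as a block called 12 members, 4175 genes in all and 72 partner genes. The excess of the summed share after SENP7 siRNA was 0.871 percentage points, 0.8 with protein-coding members alone, 0.928 over nuclear reads and 0.84 to 0.899 with a library left out.

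Scaling to nuclear reads moves all genes alike, from a median of -0.003 to 0.034, and so turned the sign of genes just below 0, namely mt-Co3 (0.007), mt-Nd6 (0.016), Tfam (0.018) and Grsf1 (0.003). Leaving out control replicate 1 did so for mt-Co3 (0.01), mt-Nd6 (0.169) and Tfam (0.022), control replicate 2 for Tfam (0.001), SENP7 replicate 2 for mt-Co3 (0.037) and SENP7 replicate 3 for mt-Nd6 (0.225), Tfam (0.049), Grsf1 (0.011) and the copy Gm28438 (-0.092). The GC and length correction did so for Pnpt1 (-0.016), Gm29216 (-0.012) and Gm28438 (-0.015). With each library left out, the log2 fold changes lay between -0.1 and 0.037 for mt-Co3, -0.2 and 0.225 for mt-Nd6, -0.08 and 0.049 for Tfam, -0.077 and 0.011 for Grsf1 and -0.092 and 0.274 for Gm28438. None of these passed the test in either direction, and the cause was not tested. Among all genes, scaling to nuclear reads called 1713 higher and 1296 lower and the GC and length correction 1481 and 2023, against 1492 and 1570. Of 38 called partner genes that the naming rule covers, 18 held with each library left out. The 18 untested members had at most 12 reads in the SENP7 and 14 in the control libraries, apart from mt-Atp8 with 27 and 16. The parts of depth, poly(A) selection and nuclear copies in these low counts were not tested.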
